A study of Homo sapiens with 30 samples.

Results

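In parental MDA-MB-231 cells, 8824 of 31188 H3K9Ac regions (28.3%) had neither a SAP30 region nor an H3K4me3 region on them, and most of them lay in introns or between genes. An H3K9Ac region was a place where both parental H3K9Ac libraries had a peak summit after each summit was extended by 500 bp at either side and touching extensions were merged. SAP30 and H3K4me3 regions were built in the same way from their own 2 parental libraries, and an H3K9Ac region that shared 1 bp with either was left out. The 8824 that remained are called H3K9Ac-only regions here, although Pol II, SIN3A or SIN3B summits were allowed in them. SAP30 or H3K4me3 summits that formed no region of both libraries were allowed as well. A SAP30 summit of a single library lay in 2495 of them (28.3%). The other H3K9Ac regions fell into 14529 with SAP30 and H3K4me3, 6318 with SAP30 alone and 1517 with H3K4me3 alone. Because the regions were chosen by the parental H3K9Ac, SAP30 and H3K4me3 summits, what those lists show about these regions is a description, with no test.

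MDA-MB-231 is an established triple-negative breast cancer cell line. It was profiled by chromatin immunoprecipitation sequencing in parental cells and in SAP30-KO1, a CRISPR/Cas9 knockout of SAP30 that, per the study's methods, is a mixture of several single-cell clones. Parental cells had 2 libraries each for SAP30, SIN3A, SIN3B, Pol II, H3K4me3 and H3K9Ac, and SAP30-KO1 cells had 2 each for Pol II, H3K4me3 and H3K9Ac. SAP30 was not profiled in SAP30-KO1, so these libraries hold no check of the knockout. The labels do not say whether the 2 libraries of a group came from separate cultures, so p-values measure only the spread between these libraries, which may be technical.

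H3K9Ac is acetylation of lysine 9 on histone H3, a mark of active chromatin found at promoters and at enhancers, the distal elements that raise transcription of genes along the chromosome. H3K4me3, trimethylation of lysine 4, is largely a mark of promoters, and acetylated chromatin without it is commonly read as a candidate enhancer. SAP30 is a subunit of the SIN3 histone deacetylase complex, whose scaffolds are SIN3A and SIN3B. In mesenchymal breast cancer cells many enhancers carry binding sites for AP-1, the FOS and JUN family of factors, and for TEAD, the DNA-binding partners of YAP and TAZ.

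The deposited lists held from 10861 to 54622 summits per library. For H3K9Ac these were 54622 and 53651 summits in parental cells, against 50862 and 50807 in SAP30-KO1 cells. Sequencing depth is unknown from these lists, and every deposited summit had a q-value of at most 0.0499, so a region that is missing from a list may hold signal below that limit. The mesenchymal markers VIM, CD44, AXL, CAV1 and MSN all had H3K9Ac, H3K4me3, Pol II and SAP30 at a start site in both parental libraries. Of the luminal or epithelial markers, ESR1, PGR, GATA3 and CDH1 had no H3K9Ac at a start site, although ESR1, PGR and CDH1 had H3K4me3 there, and EPCAM had all 4.

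Sequences of 300 bp around the midpoint of the summits are given for 3 sets of H3K9Ac-only regions, from GRCh37 and on the plus strand. Letters are lower case except matches on either strand to the AP-1 motif TGANTCA or the TEAD motif GGAATG, which are in capitals. The first set holds 4 of the 8 best-ranked regions in the parental H3K9Ac lists, the regions at ranks 1, 2, 3 and 8. Those at MAF1, PRR12, HNRNPA2B1 and MUS81 ranked better than BBC3 and are described further on without sequence, the last 3 because their windows touched an untranslated region. They were named by the nearest protein-coding start site, and they lay 83 to 3031 bp from the nearest SAP30 region and 90 to 5008 bp from the nearest H3K4me3 region. None held an AP-1 or TEAD match, and they held 9.33 to 11 CpG dinucleotides per 100 bp. These 4 do not stand for the better-ranked part of the class. Of its 1767 best-ranked regions, 9.11% lay at promoters and 23.7% had an AP-1 match.
ACTG1, chr17:79480184-79480483: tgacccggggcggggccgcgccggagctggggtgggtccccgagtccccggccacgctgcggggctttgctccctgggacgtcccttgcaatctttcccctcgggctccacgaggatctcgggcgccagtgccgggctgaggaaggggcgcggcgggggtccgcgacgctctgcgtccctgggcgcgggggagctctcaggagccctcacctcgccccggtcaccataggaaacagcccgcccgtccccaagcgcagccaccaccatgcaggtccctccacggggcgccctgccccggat
NRP1, chr10:33624176-33624475: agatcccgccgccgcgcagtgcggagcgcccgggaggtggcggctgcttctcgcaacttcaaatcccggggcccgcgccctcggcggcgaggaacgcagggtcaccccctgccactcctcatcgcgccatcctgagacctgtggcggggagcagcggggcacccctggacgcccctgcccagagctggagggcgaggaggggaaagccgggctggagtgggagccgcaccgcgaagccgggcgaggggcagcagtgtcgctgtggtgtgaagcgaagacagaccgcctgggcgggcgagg
IER5L, chr9:131936680-131936979: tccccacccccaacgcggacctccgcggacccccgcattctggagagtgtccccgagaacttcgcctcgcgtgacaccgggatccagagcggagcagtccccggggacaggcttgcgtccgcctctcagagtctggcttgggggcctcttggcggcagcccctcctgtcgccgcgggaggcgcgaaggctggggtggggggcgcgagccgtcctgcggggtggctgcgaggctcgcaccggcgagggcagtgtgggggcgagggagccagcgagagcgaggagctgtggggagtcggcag
BBC3, chr19:47729794-47730093: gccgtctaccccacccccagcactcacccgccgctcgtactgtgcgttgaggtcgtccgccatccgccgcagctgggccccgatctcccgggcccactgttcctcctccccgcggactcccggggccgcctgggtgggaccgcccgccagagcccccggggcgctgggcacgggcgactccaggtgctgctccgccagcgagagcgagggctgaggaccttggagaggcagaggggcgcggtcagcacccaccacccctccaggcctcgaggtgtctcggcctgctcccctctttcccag

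The next set repeats the choice among regions at least 2000 bp from any SAP30 or H3K4me3 region, a distance chosen after the first set was seen. Better-ranked regions at that distance were left out where their windows touched an untranslated region, PRR12 and MUS81 ahead of CPEB2, and CCNK ahead of PADI1. CPEB2 still held 14.3 CpG per 100 bp, while PADI1 and SLC38A6 held 1.67 and 1.
CPEB2, chr4:15005500-15005799: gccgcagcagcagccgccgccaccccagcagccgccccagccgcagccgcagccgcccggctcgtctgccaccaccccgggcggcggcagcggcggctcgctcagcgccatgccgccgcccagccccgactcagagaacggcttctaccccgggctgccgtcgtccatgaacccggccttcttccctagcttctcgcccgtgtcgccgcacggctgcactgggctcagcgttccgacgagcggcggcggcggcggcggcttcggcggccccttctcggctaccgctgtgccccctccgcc
PADI1, chr1:17516465-17516764: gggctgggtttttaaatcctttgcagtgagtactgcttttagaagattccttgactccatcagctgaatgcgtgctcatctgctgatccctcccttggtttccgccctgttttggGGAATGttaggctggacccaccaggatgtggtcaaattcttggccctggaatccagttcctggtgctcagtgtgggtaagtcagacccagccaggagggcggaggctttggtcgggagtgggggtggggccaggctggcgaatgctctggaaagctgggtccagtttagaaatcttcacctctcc
SLC38A6, chr14:61570395-61570694: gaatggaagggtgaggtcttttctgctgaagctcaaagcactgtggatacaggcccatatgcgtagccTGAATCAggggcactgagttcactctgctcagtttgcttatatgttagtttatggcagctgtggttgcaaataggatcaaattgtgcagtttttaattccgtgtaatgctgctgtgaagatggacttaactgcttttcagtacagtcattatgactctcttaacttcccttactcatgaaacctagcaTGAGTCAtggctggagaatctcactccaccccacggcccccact

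The last set shows the motif that the regions held most often in such windows relative to their flanks. It holds the best-ranked further regions at that distance, away from promoters, that had an AP-1 match, and was chosen for that match. They lay in introns of CNIH3, EYS and RAD51B, and the nearest protein-coding start sites, 73187, 620699 and 245298 bp away, were those of CNIH3, ZC3H11C and ZFP36L1. All 3 had a summit in both SAP30-KO1 lists and a Pol II summit in both parental libraries.
CNIH3, chr1:224730682-224730981: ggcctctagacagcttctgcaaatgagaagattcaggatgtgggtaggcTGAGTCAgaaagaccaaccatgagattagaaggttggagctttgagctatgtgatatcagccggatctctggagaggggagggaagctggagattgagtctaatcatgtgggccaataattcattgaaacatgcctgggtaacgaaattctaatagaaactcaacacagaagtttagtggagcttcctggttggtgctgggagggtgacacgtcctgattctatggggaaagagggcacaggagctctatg
ZC3H11C, chr6:65390520-65390819: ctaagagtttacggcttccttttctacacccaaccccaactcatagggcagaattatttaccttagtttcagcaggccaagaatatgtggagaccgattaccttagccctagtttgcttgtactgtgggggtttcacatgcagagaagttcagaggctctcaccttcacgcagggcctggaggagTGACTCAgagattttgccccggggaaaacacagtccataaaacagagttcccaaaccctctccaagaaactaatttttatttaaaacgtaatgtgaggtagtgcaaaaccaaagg
ZFP36L1, chr14:69014336-69014635: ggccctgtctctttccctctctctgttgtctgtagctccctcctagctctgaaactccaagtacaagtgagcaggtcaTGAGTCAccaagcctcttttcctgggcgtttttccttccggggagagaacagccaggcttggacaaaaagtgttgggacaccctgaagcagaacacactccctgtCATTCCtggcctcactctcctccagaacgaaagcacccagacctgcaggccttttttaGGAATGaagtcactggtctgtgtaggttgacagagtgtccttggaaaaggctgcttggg

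H3K9Ac-only regions ranked low among H3K9Ac regions. Rank is the place of a region's best summit in its own list, from 0% for the best score to 100% for the last. Their mean parental rank had a median of 60.2%, with quartiles of 45.5% and 73.9%. The median was 43.8% in regions with SAP30 alone, 47.6% with H3K4me3 alone and 15.4% with SAP30 and H3K4me3. When all 31188 regions were cut into 5 quintiles of equal number by this rank, 44 H3K9Ac-only regions fell in the best quintile and 4032 in the last.

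The rule left out consensus regions, not every summit. A SAP30 summit lay inside 1703 H3K9Ac-only regions (19.3%) in parental replicate 1 and inside 824 (9.34%) in replicate 2, and 2495 (28.3%) had a SAP30 summit of a single library. For H3K4me3 the shares were 2.70% and 2.71%, and 473 regions (5.36%) had a summit of a single library. Another 16 regions held SAP30 summits of both libraries that were too far apart to merge. SIN3A summits lay in 0.487% and 0.453% of H3K9Ac-only regions and SIN3B summits in 9.11% and 4.53%. In regions with SAP30 alone those shares were 4.40% and 4.70% for SIN3A and 40.7% and 24.2% for SIN3B. Of the H3K9Ac-only regions, 530 (6.01%) lay within 500 bp of a SAP30 or H3K4me3 region and 1718 (19.5%) within 2000 bp. The 530 that the rule only just kept had 18.5% of their number at promoters and a median rank of 62.2%. The 126 regions that it only just left out, with an overlap of at most 100 bp, had 33.3% at promoters and a median rank of 49.3%.

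The 8 best-ranked H3K9Ac-only regions lay within 4512 bp of a protein-coding start site. Each was within 2241 bp of a SAP30 or H3K4me3 region. The leading region, chr17:79480332-79480336, lay 411 bp from a start site of ACTG1, which encodes gamma-actin. Its ranks were 0.0769% and 0.142% in parental cells, with 0.682% and 0.610% in SAP30-KO1 cells. A SAP30 region lay 1033 bp away from its edge. The region at NRP1, a co-receptor for VEGF and semaphorins, ranked at 0.241% and 0.130% in parental cells and at 0.658% and 0.291% in SAP30-KO1 cells, and it lay 83 bp from a SAP30 region and 90 bp from an H3K4me3 region. Regions at MAF1, a repressor of RNA polymerase III, at HNRNPA2B1, an RNA-binding protein, and at MUS81, a DNA endonuclease, also lay within 463 bp of a start site, as did 1 at PRR12. The IER5L region stood 3710 bp from its start site, and the region at BBC3, which encodes the proapoptotic protein PUMA, lay in an exon 4512 bp from the nearest protein-coding start site. Among these 8 regions HNRNPA2B1 was the only 1 without a summit in a SAP30-KO1 list, in replicate 2, and 5 of the 8 had a SAP30 summit in parental replicate 2.

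Seen at their place in the genome, H3K9Ac-only regions were distal. Introns held 5345 of them (60.6%; exact 95% binomial interval 59.5% to 61.6%), intergenic sequence 2613 (29.6%; 28.7% to 30.6%), and promoters, taken as 1000 bp to either side of a start site of a coding or long noncoding RNA gene, 580 (6.57%; 6.06% to 7.11%). Such intervals cover counting error only. Exons held 152 and 3' untranslated regions 127. In each parental library by itself, 5.90% and 5.999% of the regions that met the rule were at promoters. Regions with SAP30 and H3K4me3 were at promoters in 82.2%, those with H3K4me3 alone in 35.2% and those with SAP30 alone in 10.97%.

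**Figure D1:**
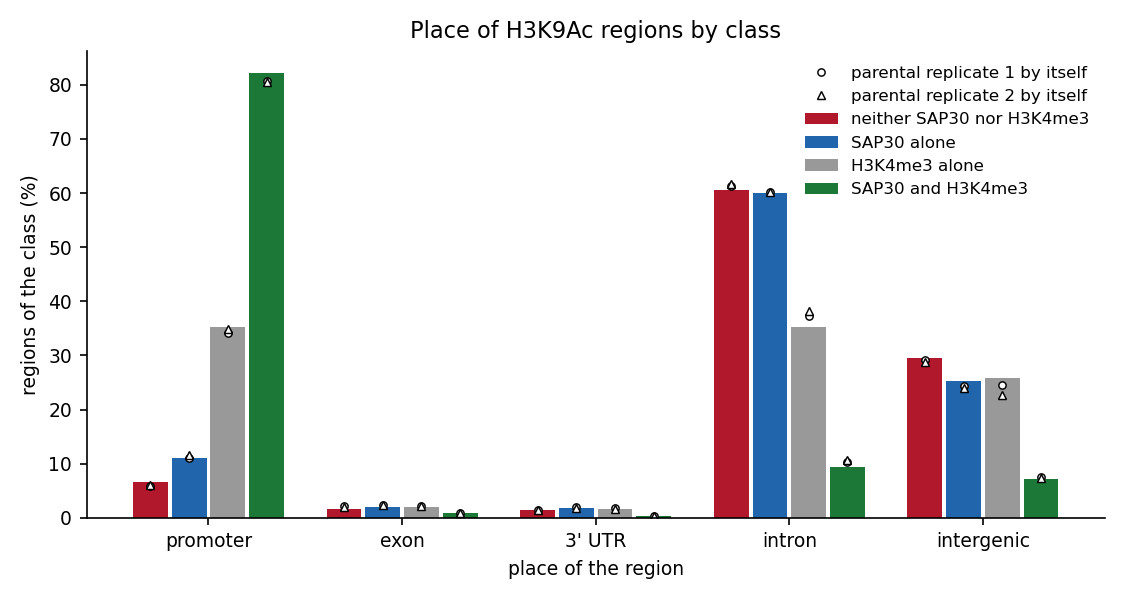
Share of H3K9Ac regions (%, vertical axis) at promoters, in exons, in 3' untranslated regions, in introns and between genes, for the 4 classes of region. Bars are regions of both parental libraries, and open symbols are the same share in each parental library by itself. Introns held 60.6% of the class with neither SAP30 nor H3K4me3, and promoters 6.57%, beside 82.2% at promoters in the class with both.

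The median distance from an H3K9Ac-only region to the nearest protein-coding start site was 37974 bp, against 23209 bp with SAP30 alone, 10000 bp with H3K4me3 alone and 257 bp with both. Distances of 10000 to 100000 bp were found for 4448 regions (50.4%), and 2063 (23.4%) lay 100000 to 500000 bp away. Another 297 (3.37%) were farther than 500000 bp, beside 0.807% of regions with SAP30 alone and 4.75% with H3K4me3 alone. Of the 8244 H3K9Ac-only regions away from promoters, 62.3% had H3K4me3 at the nearest protein-coding start site. That share was 65.8% for distal regions with SAP30 alone and 61.8% over all 56145 protein-coding start sites, so the start site nearest to a region carried H3K4me3 about as often as start sites did in general.

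The share of H3K9Ac regions that belonged to the class differed between chromosome arms. Over the 40 arms with at least 200 H3K9Ac regions it ran from 10.4% on 19q to 40.6% on 8p, with a median of 28.8%. Arms 10p, 4p and 5q followed at 38.9%, 36.6% and 36.0%, and 19p, 16p and 17p were at the low end with 11.1%, 14.7% and 14.8%.

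Of 20090 protein-coding genes, 4092 (20.4%) were the nearest for at least 1 H3K9Ac-only region, 414 for at least 5 and 78 for at least 10. BCAR3, an adaptor protein of adhesion and migration signalling, was nearest for 21 regions between chr1:94082696 and chr1:94309718, out of 32 H3K9Ac regions of all classes. Their mean parental ranks had a median of 47.1%, 17 of the 21 had a summit in both SAP30-KO1 lists and none was absent from both. NRG1, which encodes the ERBB-receptor ligand neuregulin 1, was nearest for 19 regions with a median rank of 66.4%, of which 11 were in both SAP30-KO1 lists and 3 in neither.

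ACTBL2, an actin-like gene, AOPEP, an aminopeptidase, KLF6, a zinc finger transcription factor, and PHLDA1 were each nearest for 18 regions. ACTBL2 had no H3K4me3, SAP30 or Pol II at its own start site in both parental libraries, and its 18 regions had a median rank of 34.5%, the best among the 8 genes with the most regions. SARAF, a regulator of store-operated calcium entry, was nearest for 17, and ME3, a mitochondrial malic enzyme, for 16, as was ZFP36L1, which was tied with it. The regions of KLF6 reached 495652 bp from its start site and those of PHLDA1 250344 bp, so nearest here means only that no protein-coding start site was closer.

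Gene lists were described by how many members were nearest to at least 1 H3K9Ac-only region, beside 20.4% of all protein-coding genes. A gene with much empty sequence around it is the nearest for more regions, and the lists were not matched for that. They were not matched for acetylation either, and 61.7% of all protein-coding genes had H3K9Ac at a start site. The lists were chosen with earlier results of these data known. Of 22 targets of YAP and TEAD, 20 (90.9%) were nearest to at least 1. TGFB2, a TGF-beta ligand, had 14, out of 22 H3K9Ac regions of all classes. For ASAP1, a regulator of focal adhesions, the counts were 10 of 22, for RBMS3 9 of 13 and for CRIM1 8 of 15. The defining targets CCN1 and CCN2, matricellular proteins, had 1 and 2, and ANKRD1 had 1. In the TGF-beta pathway 15 of 18 genes were counted, with 14 regions each for the ligand TGFB2 and the receptor TGFBR2, and 11 and 10 for the inhibitory factors SMAD6 and SMAD7. TGFB1 had none.

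Mesenchymal and matrix genes were counted in 23 of 27 cases, with 10 regions for THBS1, which encodes thrombospondin 1, 7 for FN1, which encodes fibronectin, and 5 each for CDH11 and ZEB2. AP-1 factors were counted in 7 of 13, with 9 regions each for FOSL2 and JUN. Fewer members were counted among luminal and epithelial genes (10 of 23), cytokines and NF-kB targets (8 of 20) and the genes the study followed (4 of 10, with 2 regions for ARTN). Cytosolic ribosomal protein genes were counted in 6 of 33 cases and genes of other lineages in 4 of 16. The leukocyte gene PTPRC led the last list with 10 regions, and GATA3, a luminal transcription factor with no H3K9Ac at its start site in both libraries, had 10 as well, 76978 to 1014149 bp away.

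Many H3K9Ac-only regions lay in groups. When regions of the class within 10000 bp of each other were joined, 8824 regions gave 6857 clusters, of which 1335 held at least 2, 394 at least 3 and 57 at least 5. Clusters of at least 2 held 37.4% of the regions, beside 38.4% of regions with SAP30 alone joined in the same way, 24.7% with SAP30 and H3K4me3 and 6.46% with H3K4me3 alone. Classes with more regions give more neighbours, and the classes differed in number. The nearest H3K9Ac region of any class was a median of 5390 bp from an H3K9Ac-only region and 3590 bp from a region with SAP30 alone.

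A pair of clusters shared the highest count, with 10 H3K9Ac-only regions each and no other H3K9Ac region between them. At RGS1, a regulator of G protein signalling, they spanned 53577 bp (chr1:192476288-192529864), their mean ranks ran from 26.0% to 80.9%, and 8 of 10 had a summit in both SAP30-KO1 lists. At ADAMTS12, an extracellular metalloproteinase, they spanned 40321 bp of intron, their ranks ran from 19.3% to 91.7%, and 7 of 10 were in both SAP30-KO1 lists. Near F2RL1, which encodes the protease-activated receptor PAR2, 9 intergenic regions stood with 2 regions of other classes over 40353 bp. This was the only 1 of the 5 largest clusters with Pol II in both parental libraries, at 2 of its regions. EXT1, an enzyme of heparan sulfate synthesis, and BCL2L1, which encodes BCL-XL, with COX4I2, followed with 8 regions in a cluster each.

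Regions in clusters of at least 3 had better ranks and were found more often in SAP30-KO1 cells than lone regions. The median rank was 51.7% in clusters of at least 3 and 63.4% for lone regions. A summit was found in SAP30-KO1 replicates 1 and 2 for 82.3% and 85.4% of the former and for 72.7% and 78.7% of the latter.

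Pol II, whose lists took no part in the choice, was found at few H3K9Ac-only regions. A Pol II summit lay inside 6.21% and 10.1% of them in parental replicates 1 and 2 and inside 6.28% and 4.22% in SAP30-KO1 replicates 1 and 2. Regions with SAP30 alone had 20.5%, 28.4%, 16.5% and 12.6% in the same order, and regions with SAP30 and H3K4me3 had 82.4%, 85.0%, 79.5% and 75.7%. Each of the 4 libraries had a lower share in H3K9Ac-only regions than in either other class. The mean difference was −12.8 percentage points to the class with SAP30 alone and −74.0 points to the class with both. In both cases the exact two-sided sign-flip permutation test over 4 libraries gave p = 0.125, the smallest value that design allows.

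**Figure D2:**
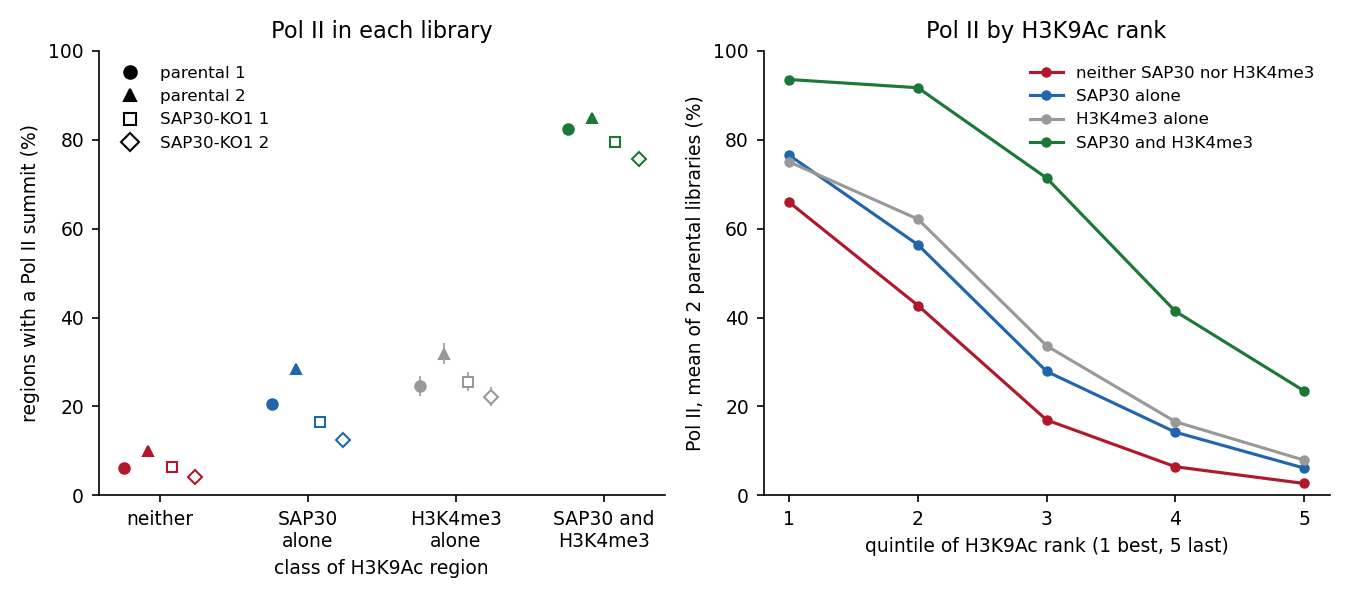
Left, share of regions with a Pol II summit inside (%, vertical axis) in each of the 2 parental libraries (filled) and 2 SAP30-KO1 libraries (open) for the 4 classes, with exact 95% binomial intervals. Right, the mean share of the 2 parental libraries by quintile of parental H3K9Ac rank (1 best, 5 last). The class with neither SAP30 nor H3K4me3 sits lowest in each library, at 4.22% to 10.1%, and in every quintile of the parental mean.

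Pol II followed the H3K9Ac rank, and the gap between the classes was smaller at equal rank. In the best quintile of all H3K9Ac regions, 65.9% of the 44 H3K9Ac-only regions had Pol II in each parental replicate, against 76.2% and 76.7% of the 202 with SAP30 alone. In the SAP30-KO1 replicates the order was the other way there, with 75% and 77.3% of the H3K9Ac-only regions against 72.3% and 69.3% with SAP30 alone. In the last quintile the shares were 1.84% and 3.52% against 4.60% and 7.69%. With the other classes weighted to the rank quintiles of the H3K9Ac-only regions, the mean difference over the 4 libraries was −4.80 points to the class with SAP30 alone and −28.0 points to the class with both. Away from promoters 5.604% and 9.41% of H3K9Ac-only regions had parental Pol II, and at promoters 14.8% and 19.3%. Introns had 4.75% and 8.27% and intergenic sequence 7.23% and 11.3%.

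No Pol II summit of any of the 4 libraries lay in 7390 H3K9Ac-only regions (83.7%), and 97 (1.10%) had a summit of all 4. Where Pol II was called it ranked low, at a median of 79.3% and 78.9% of the parental lists, against 73.5% and 71.3% in regions with SAP30 alone and 33.1% and 30.7% in regions with SAP30 and H3K4me3. The best Pol II rank was that of an intronic region of FRMD4A, a cell polarity scaffold, at chr10:14227213-14227259, where Pol II ranked at 0.0241% and 0.0130% in parental and at 0.0257% and 0.0768% in SAP30-KO1 libraries. Its H3K9Ac ranks were 40.4% and 38.8% in the parental lists. A region 930 bp from a start site of POLDIP3 followed, with Pol II ranks from 0.0217% to 0.159%. Regions within CROCC, which encodes the ciliary rootlet protein rootletin, within BBC3 and within HHAT, the Hedgehog acyltransferase, came next, and each ranked within the best 1% of all 4 Pol II lists. Only coding and long noncoding RNA genes were looked up, so a start site of another gene type at these regions would not show.

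The share with Pol II did not separate the lines in H3K9Ac-only regions. SAP30-KO1 minus parental was −2.89 percentage points in H3K9Ac-only regions (exact two-sided permutation test of 2 libraries against 2, p = 0.667, where 0.333 is the smallest value possible), with replicate 1 of SAP30-KO1 between the parental libraries. Pol II was called in both parental libraries at 348 H3K9Ac-only regions (3.94%), beside 42.1% of all H3K9Ac regions. Of the 348, 146 (42.0%) had it in neither SAP30-KO1 list, beside 7.98% of all H3K9Ac regions with Pol II in both parental lists and 31.6% of those with SAP30 alone. In the other direction, 32 (19.3%) of the 166 H3K9Ac-only regions with Pol II in both SAP30-KO1 lists had it in neither parental list, beside 2.2% of all. With SAP30 alone that share was 7.29%. Both shares of the H3K9Ac-only regions were above the background. Pol II in both lists of a line was required first, so absence from the other line was favoured by the choice. The Pol II ranks of these regions by themselves are not given here, and the cause was not tested.

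Most H3K9Ac-only regions were found again in SAP30-KO1 cells. A summit lay within 1000 bp in 6706 (76.0%) for replicate 1 and in 7147 (81.0%) for replicate 2, and 6061 (68.7%) had 1 in both. Absent from both SAP30-KO1 lists were 1032 (11.7%; exact 95% binomial interval 11.03% to 12.4%), beside 4.97% of all H3K9Ac regions. The share was 4.18% with SAP30 alone, 9.49% with H3K4me3 alone and 0.764% with both. Since a region had to be in both parental lists to be counted, absence from the other line was favoured by the choice itself. Taken the other way, 792 (9.41%) of 8414 regions of the same class built from both SAP30-KO1 lists were absent from both parental lists, beside 3.65% of all SAP30-KO1 H3K9Ac regions.

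Absence was a matter of the weakest regions. In the 3 better quintiles of H3K9Ac rank, 0, 0 and 0.456% of H3K9Ac-only regions were absent from both SAP30-KO1 lists, and in the last 2 the shares were 4.45% and 22.2%. The 1032 absent regions had a median rank of 76.5%, against 52.9% for the 6061 found in both. With the class with SAP30 alone weighted to the same rank quintiles, the difference in absence was 4.23 percentage points, in place of 7.52. That excess came from the last 2 quintiles. From the best to the last quintile, regions with SAP30 alone were absent in 2.97%, 0.969%, 0.584%, 2.67% and 14.1%. H3K9Ac-only regions were thus absent less often than those in the 3 better quintiles and more often in the last 2. Regions with H3K4me3 alone were absent more often than H3K9Ac-only regions in each quintile, at 0.641%, 0.758%, 1.15%, 6.83% and 26.4%, although less often over all quintiles.

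**Figure D3:**
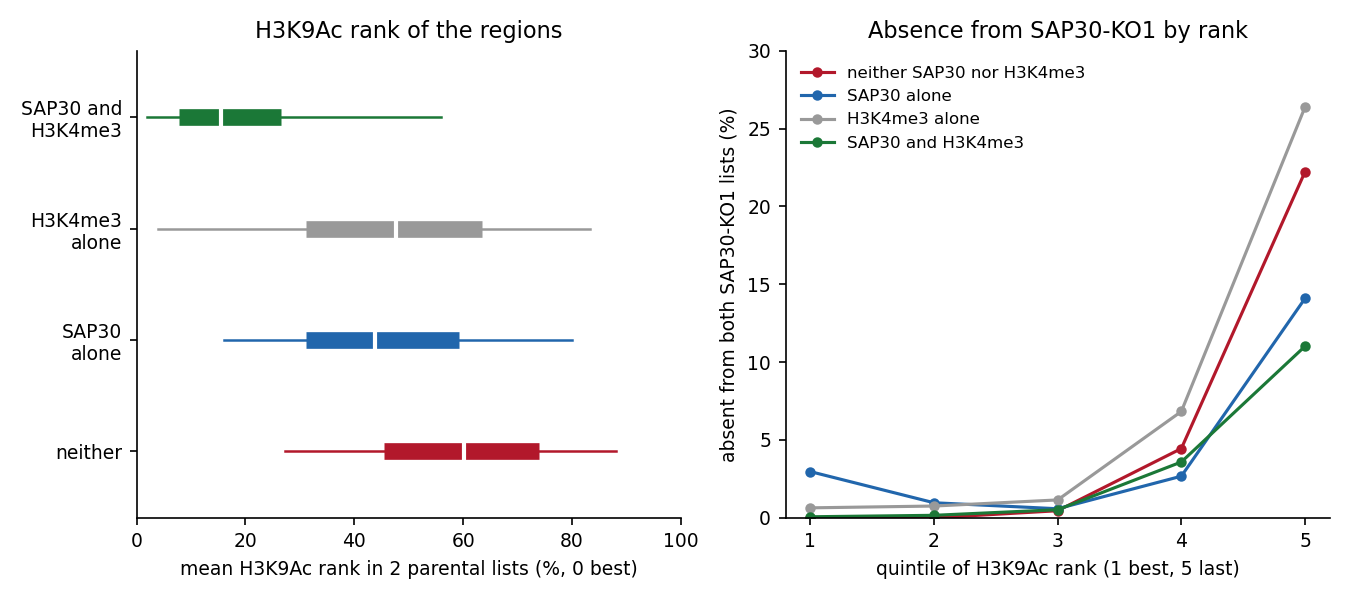
Left, mean rank of H3K9Ac regions in the 2 parental lists (%, 0 best) for the 4 classes, where the tick is the median, the box the middle 50% and the line the middle 90%. Right, share of regions absent from both SAP30-KO1 H3K9Ac lists (%) by quintile of that rank. Absence in the class with neither SAP30 nor H3K4me3 stays under 0.5% in the 3 better quintiles and reaches 22.2% in the last.

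Replicates of 1 line disagreed almost as often as the lines did. Regions of the class were therefore built from 1 library at a time. Of 15928 such regions of parental replicate 1, 64.6% had a summit in parental replicate 2, and 59.5% and 64.3% in SAP30-KO1 replicates 1 and 2. Of 14585 from parental replicate 2, 69.4% were found in parental replicate 1, and 61.6% and 65.6% in the SAP30-KO1 libraries. The parental replicate thus held more of them than the SAP30-KO1 libraries did on average, by 2.69 and 5.82 percentage points.

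Starting from the SAP30-KO1 libraries, the same difference between the library of the same line and those of the other line was 3.29 points for replicate 1 and −1.19 points for replicate 2. SAP30-KO1 replicate 2 was found in the parental libraries in 67.8% and 64.4% and in its own replicate in 64.9%. When the 4 lists were limited to the length of the shortest, the mean parental difference was 1.29 in place of 4.26 points. Regions with SAP30 and H3K4me3 were found in 96.4% to 97.9% in every such comparison.

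**Figure D4:**
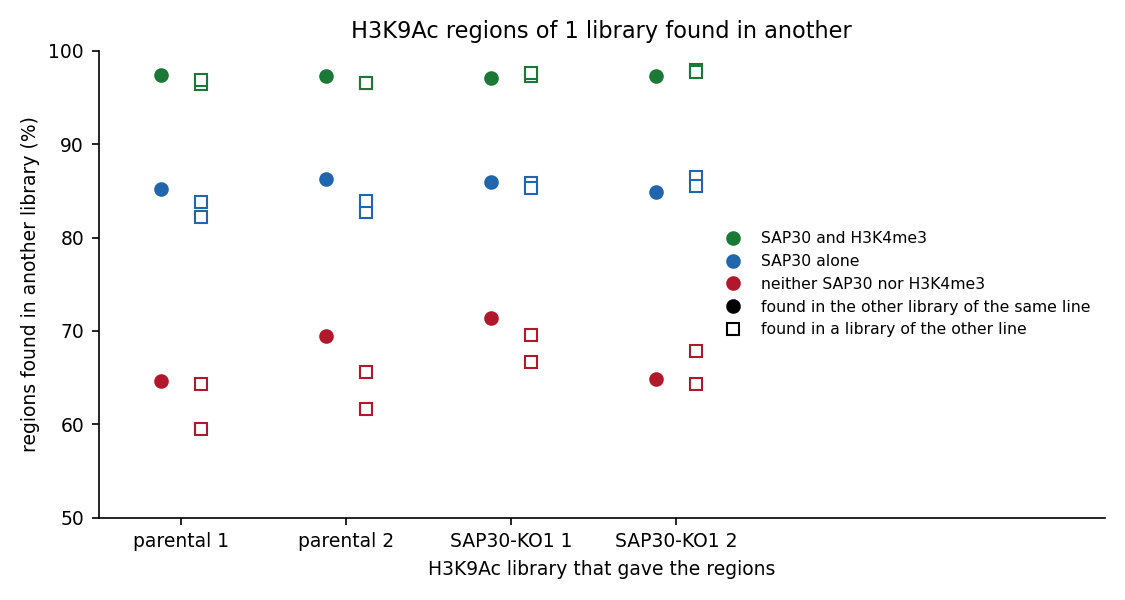
Share of H3K9Ac regions built from 1 library (%, vertical axis, which starts at 50%) with a summit in another library, for 3 classes of region. Filled circles are the other library of the same line and open squares the 2 libraries of the other line. For the class with neither SAP30 nor H3K4me3 the values lie from 59.5% to 71.4% and circles and squares overlap for SAP30-KO1 replicate 2.

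Summits were also counted over each whole H3K9Ac list, with no choice of regions by H3K9Ac. Both lines were set against the same SAP30 and H3K4me3 regions, which came from parental cells alone. Summits that lay in no SAP30 and no H3K4me3 region numbered 21700 and 20066 for parental H3K9Ac and 18159 and 19852 for SAP30-KO1 H3K9Ac. The means were 20883 ± 1155 (SD, n = 2) and 19006 ± 1197 (SD, n = 2), a ratio of 0.910, and the exact permutation test of 2 libraries against 2 gave p = 0.333, the smallest possible. As a percentage of their lists they were 39.7% and 37.4% in parental and 35.7% and 39.1% in SAP30-KO1 cells (exact permutation test, p = 0.667), so the lines overlapped. With lists of equal length the SAP30-KO1 mean was higher by 439.5 summits.

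The absent regions with the best parental ranks were few and mid-ranked. The first, between genes at chr18:11324694-11324820, ranked at 24.4% and 29.8% and had SAP30-KO1 summits 1067 and 1601 bp away, just beyond the limit. One that started at chr18:52786453, at a promoter of LINC01929, ranked at 38.9% and 25.8%, with the nearest SAP30-KO1 summits 17633 and 22116 bp away. An exonic region 1222 bp from a start site of EPHA2, an ephrin receptor kinase, and another in an intron of FRMD4A had SAP30-KO1 summits within 1824 bp of them. In an intron of DNM2, which encodes dynamin 2, the nearest were 9259 and 9294 bp away.

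For ranks, regions were built anew from the summits of all 4 H3K9Ac lists. A summit of each list was required, and rank was taken among such regions alone. The number in the class therefore differs from the 6061 above. The 5565 H3K9Ac-only regions had parental median ranks of 80.3% and 79.8%, and SAP30-KO1 median ranks of 78.9% and 79.6%, a difference of −0.848 between the means. By the rank in the whole list the difference was 1.87, in the other direction. Presence was asked of both lines alike, but the SAP30 and H3K4me3 regions that set the class came from parental cells alone. No p-value is given for either difference. A better rank in both SAP30-KO1 lists than in both parental lists was found for 1144 of them (20.6%), beside 19.5% of all regions in 4 lists, and a worse rank for 1086 (19.5%), beside 19.8% of all. Per region, the median absolute difference was 7.90 between the parental libraries, 7.83 between the SAP30-KO1 libraries and 8.21 to 9.14 between libraries of different lines.

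Single regions with ranks apart in the 2 lines are named as the ends of that range. An intronic region 76559 bp from a start site of XPA, a DNA repair factor, went from 81.1% and 98.8% of the whole parental lists to 46.5% and 49.1% of the SAP30-KO1 lists. A region in LFNG, a glycosyltransferase that modifies Notch, had 89.5% and 47.6% in parental and 32.2% and 34.8% in SAP30-KO1 cells, and another in APBB2 had 98.0% and 94.0% in parental and 60.8% and 61.3% in SAP30-KO1 cells. In the other direction, an intergenic region 83781 bp from LINC02218 went from 50.6% and 58.5% to 95.3% and 95.02%, and an intergenic region near FAM220A went from 58.5% and 44.6% to 87.5% and 92.2%. At CRAMP1 the parental ranks were 24.97% and 20.98% and the SAP30-KO1 ranks 93.6% and 26.4%, so 1 library carried that change.

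In rank, chromosome arm 11q stood apart from the other arms. There the 137 H3K9Ac-only regions with summits in all 4 lists had a median rank change of 6.37, toward the end of the SAP30-KO1 lists. All 806 H3K9Ac regions of that arm in 4 lists changed by 7.85. The medians of the H3K9Ac-only regions on the other arms with at least 50 of them ran from −3.18 on 4p to 1.84 on 17q. Of the 278 H3K9Ac-only regions on 11q, 24.5% were absent from both SAP30-KO1 lists, with 22.4% on 16q, 18.5% on 18q and 18.3% on 20p next to it. Absent shares over all H3K9Ac regions of these arms are not given here, so the values do not set the class apart from other regions of an arm. Without the arm, the absent share over all H3K9Ac-only regions was 11.3%.

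The sequence around the midpoint of the summits, which took no part in the choice, differed from that of promoter regions. From first to last, the summits of an H3K9Ac-only region spanned a median of 589 bp, so in many regions the outer ones lay outside the window. H3K9Ac-only regions had a median of 1 CpG per 100 bp and 44.7% G+C in the 300 bp window, beside 1.33 CpG and 50% G+C with SAP30 alone and 8 CpG and 66% G+C with SAP30 and H3K4me3. The GC box GGGCGG was in 6.36% of their windows and 59.6% of those with both, beside 45.0% of 35116 RefSeq promoters of 300 bp (GRCh38.p14). For the ETS motif CCGGAA the shares were 3.32%, 18.3% and 17.2%.

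Of the 9 motifs, AP-1 differed most between the windows at the midpoint and their flanks. The AP-1 motif was in 22.2% of windows at the midpoint of the summits. It was in 10.2% and 9.21% of windows displaced by 2000 bp to the left and right, whose median G+C was 43.3%. Regions with SAP30 alone had 24.4%, regions with both 5.28%, and RefSeq promoters 7.71%. TEAD matches were in 19.4% of H3K9Ac-only windows, 16.6% and 16.4% of the displaced windows and 20.6% with SAP30 alone. RUNX (TGTGGT) was in 22.3% against 19.9% and 20.1% of displaced windows. The C/EBP motif TTGCNNAA was in 14.5% of windows at the midpoint and 14.9% and 14.3% of displaced ones. Forkhead factors, whose motif was taken as TGTTTAC, had matches in 5.39% of windows at the midpoint against 4.36% and 4.68% when displaced. For the GATA family the share was 16.8% at the midpoint and 18.6% and 18.4% in displaced windows, where a match was the string AGATAA. E-boxes (CACGTG) were in 2.65%, beside 3.46% and 2.88% of displaced windows.

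**Figure D5:**
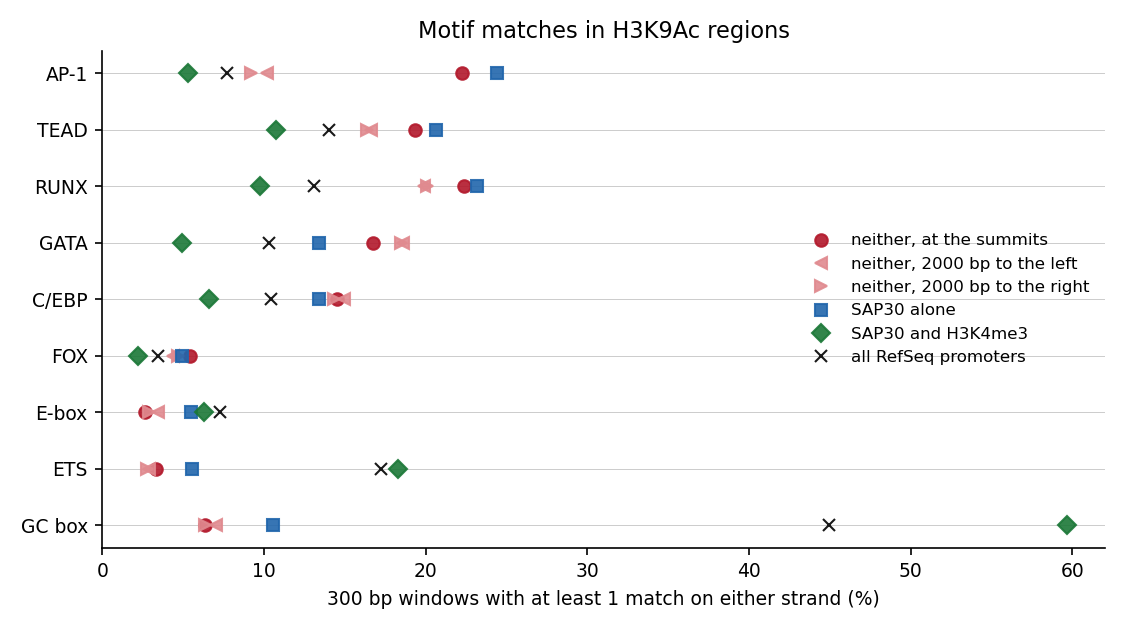
Share of 300 bp windows with at least 1 motif match on either strand (%, horizontal axis) for 9 motifs. Windows of H3K9Ac regions with neither SAP30 nor H3K4me3 are centred on the midpoint of the summits (in the key, at the summits) or displaced by 2000 bp. Beside them are 2 other classes and RefSeq promoters. AP-1 stands at 22.2% at the midpoint and at 10.2% and 9.21% displaced, and the GC box at 6.36% against 59.6% in the class with SAP30 and H3K4me3.

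The AP-1 share was lower in regions that were not asked to replicate, at 15.2% and 14.8% in the regions of each parental library by itself. That was not particular to the class, since regions with SAP30 alone had 18.3% and 17.6% in place of 24.4%. Those with SAP30 and H3K4me3 had 4.63% and 5.13% in place of 5.28%. By quintile of rank within the class, from the best to the last, it was 23.7%, 25.4%, 23.2%, 20.96% and 17.8%. The 1961 regions with an AP-1 match had a median rank of 57.6% and the 6863 without it 61.0%. Those with a match were found in SAP30-KO1 replicates 1 and 2 in 79.3% and 85.0%, and those without it in 75.04% and 79.8%. Pol II differed little between them, at 6.22% and 10.8% with a match and 6.21% and 9.85% without in the parental libraries.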

How the data were processed

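Of 30 chromatin immunoprecipitation samples, 18 libraries in 9 groups of 2 had peak lists, and the other 12 (inputs and total H3) were not analysed here. Per the labels and file headers, the authors aligned reads to hg19 with Bowtie2 2.3.3.1 and called peaks per library with MACS2 2.1.0. FastQC 0.11.2 and Picard are also named in the submitters' processing notes. The deposited values are a −log10 q per summit, at single base positions, and give no depth. The members, gene lists and comparisons were chosen with earlier results of these data known.

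Summits were extended by 500 bp and merged, and a region with summits of both replicates was kept. A region was present in another list if a summit lay within 1000 bp of its summits, and had Pol II if a Pol II summit lay inside it. Start sites came from GENCODE 44 (GRCh37), and RefSeq promoter sequences (GRCh38.p14) served only for motif shares. Clusters joined regions within 10000 bp. Motifs were searched on both strands in 300 bp around the midpoint of a region's summits. Libraries were compared by two-sided exact permutation tests, which with 2 against 2 cannot go below p = 0.333 and as a sign flip over 4 libraries not below 0.125. Shares of regions carry exact (Clopper-Pearson) 95% intervals for counting error only. Tests ran in Python 3.11.15 with scipy 1.17.1 and numpy 2.4.6, sequences were read with pysam 0.24.0, and the steps were tested on simulated lists.

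Named were the 8 regions with the best mean parental rank, the 5 largest clusters, the 8 genes nearest to the most regions, the 5 best Pol II ranks among regions with Pol II in all 4 libraries, the 5 best-ranked absent regions and the 3 largest rank changes in each direction. Alternatives changed the extension, lists, start sites, cluster distance, motif window and the regions left out, and left out each replicate in turn. Same-numbered replicates did not deviate together (r = −0.0166 across 5565 regions, which are not independent replicates), so numbers were not taken as pairs.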

Additional observations from a re-analysis of the deposited data

How the results depend on the processing

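Of 251 values under 31 alternative settings, 186 counted as kept, 59 moved further and 6 changed sign. The number of regions was kept within 1.5 times the value in the report, and shares without a test within the replicate spread. Values with a permutation test were judged by sign alone, since the smallest p of these designs was 0.125. Their sizes were not judged. The Pol II difference to the class with both counted as kept at −28.0 points when weighted by rank quintiles, against −74.0 in the main setting. The cause of each change was not tested. The deposited lists give no depth, so absence from a list cannot be told apart from signal below the caller's limit.

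The change of H3K9Ac rank in SAP30-KO1 cells turned from −0.848 to 0.101 in the better-ranked 50% of each list and to 1.87 by rank in the whole list. The change in summits off SAP30 and H3K4me3 turned to 439.5 with lists of equal length. As a percentage it turned to 0.865 points with equal lists, to 0.0376 points at 2000 bp or more from SAP30 and H3K4me3 regions, and to 0.509 points without SAP30-KO1 H3K9Ac replicate 1.

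The number of H3K9Ac-only regions was 14137 with summits extended by 250 bp, 2242 in the better-ranked 50% and 5689 when SAP30 and H3K4me3 regions of either replicate were left out. In the same order the promoter share was 13.9%, 7.76% and 5.62%, and the share in clusters 58.1%, 28.0% and 30.5%. With summits extended by 1000 bp these shares were 6.04% and 23.1%. The promoter share was 6.13% without H3K4me3 regions of SAP30-KO1, 5.66% without SIN3A and SIN3B regions and 5.47% at 2000 bp or more from SAP30 and H3K4me3 regions, where 35.7% lay in clusters. It was 4.53% and 17.1% with promoter windows of 500 and 3000 bp, and 3.34% with protein-coding start sites only. Clustering was 36.3% with equal lists and 26.9% and 48.9% for distances of 5000 and 20000 bp. In the better-ranked 50%, 19.8% had parental Pol II (8.14% in the main setting, the mean of both libraries). There 15.6% were absent from both SAP30-KO1 lists, which were cut to their better-ranked 50% as well. A summit in the lower part of a SAP30-KO1 list thus counted as absent in that setting. The parental excess in finding regions again fell to 1.29 points with equal lists. In a 100 bp window the AP-1 share was 8.74% and its excess over displaced windows 5.36 points.

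Leaving out 1 replicate at a time gave 7024 (without SAP30 replicate 2) to 15928 regions (without parental H3K9Ac replicate 2), 5.90% to 7.16% at promoters, 32.4% to 49.3% in clusters, 5.00% to 10.1% with parental Pol II and 11.7% to 26.2% absent from SAP30-KO1. The highest absent share came without parental H3K9Ac replicate 2. The excess of absence over regions with SAP30 alone ran from 7.41 to 17.3 points, the parental excess in finding regions again from 2.04 to 6.47 points, and the percentage of summits off SAP30 and H3K4me3 from −2.86 to 0.509 points. The Pol II differences to other classes and between lines kept their sign in these settings.

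With the replicate number as a replicate block, the parental excess was 4.45 points and the rank change −0.848. The block changed no direction.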
